A study of Mus musculus with 7 samples.

Results

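The genes described here are 3 pore-forming alpha subunits of voltage-gated sodium channels (Scn1a, Scn3a and Scn8a), 3 auxiliary beta subunits (Scn2b, Scn3b and Scn4b) and 2 genes of the fibroblast growth factor homologous factors, or FHFs (Fgf14 and Fgf12). They were chosen by gene symbol, and all 8 were found among the 24421 symbols of the count tables and passed the filter on low counts, which left 16905 genes. RNA from whole cerebellum of C57BL/6 mice was sequenced in 4 libraries titled CicKO (En1-Cre with both Cic alleles floxed) and 3 titled Wildtype, whose genotype is Cicflox/+ with no Cre named. En1 is switched on in the embryonic midbrain and hindbrain; Cre under its control acts in that lineage, so cells of other origin in the tissue keep Cic. Because the labels name Cre for the CicKO group only, an effect of Cre and loss of Cic cannot be told apart. Age, sex and litter are not in the labels, nor is it said that each library is a separate animal, so the p-values may measure technical spread only.

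Sodium channels open on depolarization, carry the inward current of the action potential upstroke and inactivate within it. The alpha subunit forms the pore, the beta subunits alter gating and act as adhesion molecules, and FHFs bind the cytoplasmic tail of the alpha subunit inside the cell and alter inactivation. In the cerebellum these proteins sit at the axon initial segment and nodes, and they underlie the rapid firing of Purkinje cells. The product of Cic is a DNA-binding repressor and a partner of ATXN1, whose expanded polyglutamine form causes spinocerebellar ataxia type 1. The comparison asks which transcripts differ when Cic is deleted in these cells.

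The libraries held 102653765 to 121285349 gene counts. Cic itself was at 147, 146, 144 and 147 CPM (counts scaled by TMM to a common library size) in CicKO, against 216, 257 and 223 CPM in Wildtype, a log2 fold change of -0.66 (SE 0.0622, edgeR adjusted p = 0.00256). CicKO 3 and Wildtype 3 stood apart from the other libraries in choroid plexus transcripts: the 8 listed markers summed to 12100 CPM in CicKO 3 against 208 to 307 CPM in the other CicKO libraries, and to 8310 CPM in Wildtype 3 against 240 and 365 CPM in the other Wildtype libraries. Results are therefore given with and without these libraries where they differ.

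No sodium channel gene or FHF partner among the 8 was called different between CicKO and Wildtype. With edgeR's quasi-likelihood test, 0 of 8 passed an adjusted p of 0.05 in either direction, and DESeq2 also called 0. At an unadjusted p below 0.05 there was 1, Scn4b, which was higher in CicKO. Over all genes tested, 1.25% were called higher and 0.828% lower, 2.08% in all. An unadjusted p below 0.05 was found for 8.06% of genes that were higher and 8.16% that were lower, 16.2% in all. The CPM ranges of the groups overlapped for all 8 genes, whereas 15.4% of all tested genes had no overlap. Fold changes on the log2 scale were positive for 4 genes and negative for 4, with a median of 0.04 against 0.00 over all tested genes.

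**Figure D1:**
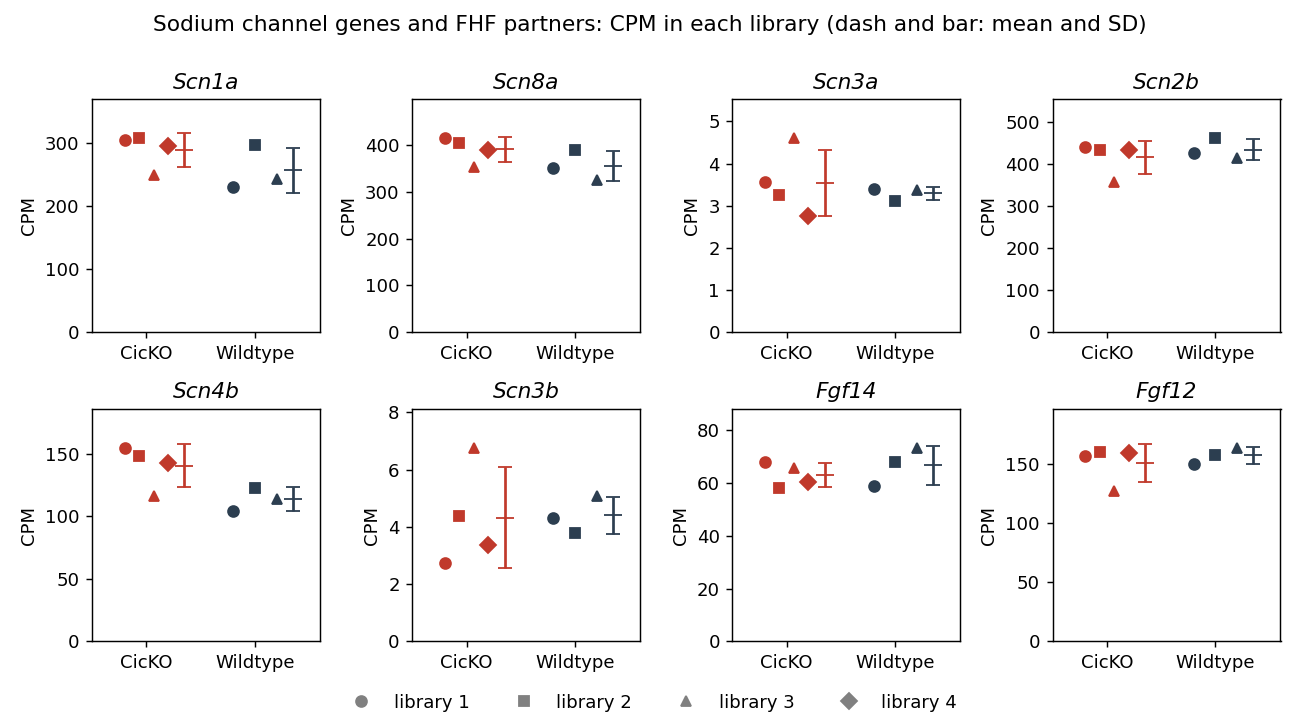
CPM (vertical axis, from 0) of each gene in each of the 4 CicKO and 3 Wildtype libraries; the marker shape gives the library number, and the dash and bar give the mean and SD. The groups overlap in every panel, and CicKO 3 (triangle) is the lowest CicKO library for Scn1a, Scn8a, Scn2b, Scn4b and Fgf12 and the highest for Scn3a and Scn3b.

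Scn1a and Scn8a were the abundant alpha subunits among the members, and both averaged slightly higher in CicKO without passing the test. Scn1a encodes the alpha subunit whose loss of function causes Dravet syndrome in humans and which fast-spiking inhibitory neurons depend on. It was at 304, 307, 248 and 295 CPM in CicKO, against 229, 297 and 242 CPM in Wildtype. Only Wildtype 2 reached the level of CicKO libraries 1, 2 and 4, and CicKO 3 lay beside the 2 lower Wildtype libraries. The log2 fold change was 0.17 (SE 0.107, edgeR adjusted p = 0.478), with a 95% interval from -4.89% to 33.4% in CicKO relative to Wildtype.

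Scn8a encodes the main alpha subunit of mature nodes of Ranvier and axon initial segments and carries much of the resurgent sodium current of Purkinje cells. Its level was 415, 405, 354 and 390 CPM in CicKO, against 351, 389 and 325 CPM in Wildtype. CicKO libraries 1, 2 and 4 lay above all Wildtype libraries and CicKO 3 lay among them. This gave a log2 fold change of 0.14 (SE 0.0794, edgeR adjusted p = 0.434), with an interval from -2.84% to 24.9%.

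RefSeq (build GRCm38.p6) lists more than 1 start site for Scn8a, and the sequence before the second of them is shown because it holds an octamer that CIC is known to bind. The octamers TGAATGAA, TGAATGGA, TCAATGAA and TCAATGGA were searched on both strands in the 250 bases before each start site. TGAATGGA occurred once there, on the strand of the gene, with 81 bases between its end and the start site, in the plus-strand window at chr15:100936021-100936270. The whole window lies within Scn8a as GENCODE M21 annotates it (100869858 to 101045938). Whether transcripts start there in this tissue was not tested. Capitals mark the octamer.
Scn8a, second start site: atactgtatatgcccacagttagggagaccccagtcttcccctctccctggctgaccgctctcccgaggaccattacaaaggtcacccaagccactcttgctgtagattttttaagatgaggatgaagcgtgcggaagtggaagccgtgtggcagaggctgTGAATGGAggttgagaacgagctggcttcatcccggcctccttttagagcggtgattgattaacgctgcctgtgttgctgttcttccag
The windows of 6 of the 8 genes were found, 10 in all, and this was the 1 that held an octamer. Of 32851 RefSeq windows of the same length, 3.19% held one. A match in these letters is not a measured binding site.

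Scn3a, the alpha subunit that prevails in the embryonic brain, was scarce. It was at 3.55, 3.25, 4.60 and 2.76 CPM in CicKO and at 3.40, 3.12 and 3.36 CPM in Wildtype, and the Wildtype values all lay within the CicKO range. The difference on the log2 scale was 0.10 (SE 0.173, edgeR adjusted p = 0.812), with an interval from -18.3% to 41.4%. Without CicKO 3, the highest library, it was -0.05.

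Scn4b had the largest difference of the 8. Its product, the beta-4 subunit, is disulfide-linked to the alpha subunit. The cytoplasmic tail of beta-4 has been proposed as an open-channel blocker that contributes to resurgent current in Purkinje cells. Scn4b was at 155, 148, 116 and 143 CPM in CicKO, against 104, 123 and 114 CPM in Wildtype. CicKO libraries 1, 2 and 4 lay above every Wildtype library, and CicKO 3 lay between Wildtype 3 and Wildtype 2. The means were 140 ± 16.9 CPM in CicKO and 114 ± 9.52 CPM in Wildtype (SD, n = 4 and 3), a 1.23-fold difference. On the log2 scale the difference was 0.30 (SE 0.101), with an interval from 4.92% to 44.9%, an unadjusted edgeR p of 0.0172 and an adjusted p of 0.196. By p it ranked 1487 of the 16905 genes. Without CicKO 3 the log2 fold change was 0.38 and the gene was called (edgeR adjusted p = 0.0174). Over the 16 alternatives the fold change stayed positive, from 0.24 to 0.38, and the adjusted p ran from 0.0174 to 0.706, with 0.0506 in DESeq2 and 0.0546 without both CicKO 3 and Wildtype 3.

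The sequence before the Scn4b start site, on the plus strand at chr9:45138374-45138623, is shown because this gene had the largest difference. RefSeq places that start site downstream of the one in GENCODE M21, so most of the sequence lies within the gene as GENCODE annotates it. It holds none of the octamers, so it has no capitals.
Scn4b: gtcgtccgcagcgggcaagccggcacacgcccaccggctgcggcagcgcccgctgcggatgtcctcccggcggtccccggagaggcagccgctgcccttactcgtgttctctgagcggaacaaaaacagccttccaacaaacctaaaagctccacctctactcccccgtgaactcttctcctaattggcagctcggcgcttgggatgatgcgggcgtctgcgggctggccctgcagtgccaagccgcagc
Its GC content was 66.0%, compared with 38.4% in the window before Scn2b, which lies 8324 bases upstream of Scn4b on chromosome 9.

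Scn2b encodes the beta-2 subunit, which is also disulfide-linked to alpha. It was at 441, 435, 358 and 434 CPM in CicKO, against 427, 462 and 415 CPM in Wildtype. CicKO libraries 1, 2 and 4 were close together, with a coefficient of variation of 0.91%, and CicKO 3 lay at 82.0% of their mean and below all Wildtype libraries. The log2 fold change was -0.06 (SE 0.0837, edgeR adjusted p = 0.77), with an interval from -16.0% to 9.45%. The estimate for Scn4b (23.3%) lay outside that interval, but the interval of Scn4b began at 4.92%, so the intervals overlapped. Without CicKO 3 the log2 fold change of Scn2b was 0.01. Its difference from that of the neighbouring gene Scn4b was not tested.

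Scn3b, the noncovalently bound beta-3 subunit of the developing brain, was also scarce. Its values were 2.75, 4.38, 6.77 and 3.38 CPM in CicKO and 4.32, 3.80 and 5.09 CPM in Wildtype. CicKO 3 was again the highest library, at 193% of the mean of the other CicKO libraries. The log2 fold change of -0.03 (SE 0.292, edgeR adjusted p = 0.977) had an interval from -38.5% to 56.3%, the widest of the 8, and it was -0.33 without CicKO 3.

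As shares of the 3 beta subunit genes described here, per kilobase of exon, Scn4b made up 24.6%, 24.0%, 23.0% and 23.4% in CicKO, against 18.4%, 19.8% and 20.2% in Wildtype. These ranges did not overlap, CicKO 3 included. Scn2b held most of the rest, 75.6 ± 0.462% in CicKO and 79.8 ± 0.977% in Wildtype. This share was looked at after the levels had been seen and has no test. Among 8 alpha subunit genes Scn1a made up 29.4 ± 1.02% in CicKO and 29.4 ± 1.21% in Wildtype, and Scn8a 28.2 ± 0.168% in CicKO and 29.0 ± 1.23% in Wildtype, and for both genes the groups overlapped. Scn11a, described further on, made up 0.102%, 0.205%, 0.547% and 0.152% in CicKO, against 0.0431%, 0.00536% and 0.0533% in Wildtype, without overlap.

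Fgf14 and Fgf12, the FHF genes among the members, averaged slightly lower in CicKO, and neither passed the test. The remaining FHF genes, Fgf11 and Fgf13, had positive log2 fold changes (0.12 and 0.23) and were not called either. Fgf14, mutated in human spinocerebellar ataxia type 27, was at 67.9, 58.2, 65.6 and 60.6 CPM in CicKO and at 58.9, 67.9 and 73.5 CPM in Wildtype. Both groups spread over much the same range. Its log2 fold change was -0.08 (SE 0.0839, edgeR adjusted p = 0.679), with an interval from -17.3% to 7.83%. An antisense gene, Gm28932, covers 5.26% of the exonic bases of Fgf14, so reads there cannot be assigned to a strand if counting was unstranded. No other member shared exonic bases with another annotated gene.

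Fgf12, a close relative of Fgf14, was at 157, 160, 127 and 159 CPM in CicKO, against 150, 158 and 164 CPM in Wildtype. Apart from CicKO 3, which was below every other library, all libraries lay within 150 to 164 CPM. On the log2 scale the difference was -0.06 (SE 0.0821, edgeR adjusted p = 0.756), with an interval from -15.9% to 9.02%, and it was 0.01 without CicKO 3. Fgf14 and Fgf12 each have alternative first exons, and Scn8a has alternative internal exons, that whole-gene counts do not separate.

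**Figure D2:**
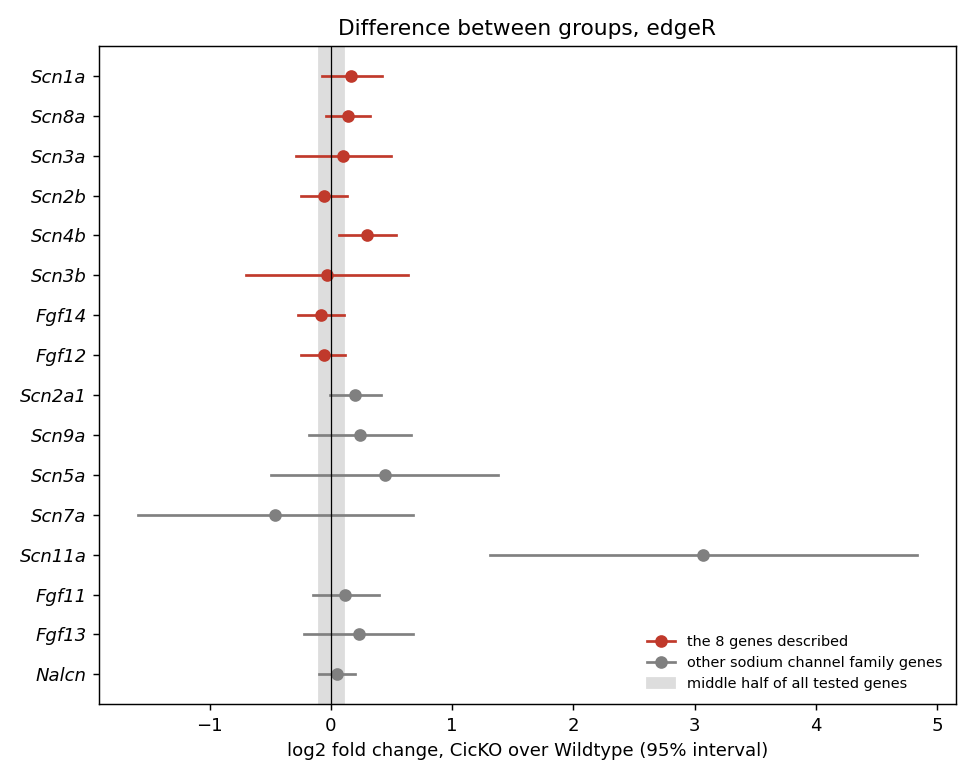
Log2 fold change of CicKO over Wildtype (horizontal axis) with its 95% interval from edgeR, for the 8 genes (red) and 8 other genes of the family (grey); the band spans the middle of the distribution of all tested genes, from -0.10 to 0.11. Among the 8, the interval of Scn4b alone leaves out 0, and Scn11a lies far to the right of the others.

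Per kilobase of exon (RPKM over the merged exons of GENCODE M21), Scn2b was the most abundant of the 8, at 89.5 ± 8.48 in CicKO and 93.4 ± 5.24 in Wildtype. Next came 4 genes whose order differed between the groups. In CicKO these were Scn4b (28.2 ± 3.39), Scn1a (25.9 ± 2.47), Scn8a (24.8 ± 1.69) and Fgf12 (24.3 ± 2.53), and in Wildtype Fgf12 (25.4 ± 1.09), Scn1a (23.0 ± 3.21), Scn4b (22.9 ± 1.91) and Scn8a (22.5 ± 2.04). Neighbours among these 4 did not differ beyond their spread over libraries in either group. Fgf14 followed at 15.1 ± 1.06 RPKM in CicKO and 16.0 ± 1.76 RPKM in Wildtype. Scn3b (0.791 ± 0.324 in CicKO, 0.806 ± 0.119 in Wildtype) and Scn3a (0.284 ± 0.0625 in CicKO, 0.264 ± 0.0122 in Wildtype) were lowest, and their ranges did not overlap with each other. These levels depend on the gene model, since the longest transcript of Scn1a spans 8.39 kb and its merged exons 11.15 kb.

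**Figure D3:**
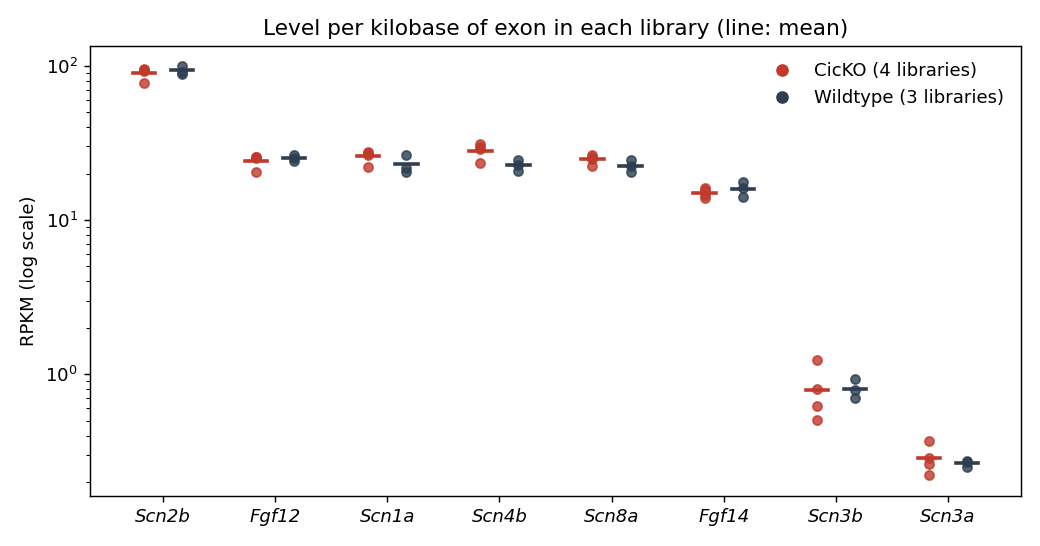
RPKM (log scale) of each gene in each CicKO and Wildtype library, ordered by the Wildtype mean; lines mark group means. Scn2b lies above the rest, Scn4b, Scn1a, Scn8a and Fgf12 lie together between 20.5 and 31.1 RPKM, and Scn3b and Scn3a are far below.

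The 8 genes lie on 5 chromosomes of GRCm38. Scn1a (66270778 to 66440840) and Scn3a (65457118 to 65567627) share a cluster on chromosome 2 minus strand, with Scn2a1 between them. Scn2b (45117782 to 45130070), Scn4b (45138395 to 45154152) and Scn3b (40269217 to 40291618) lie on chromosome 9 plus strand, and Scn8a on chromosome 15 plus strand at 100869858 to 101045938. Fgf14 (chromosome 14, 123977907 to 124677127) and Fgf12 (chromosome 16, 28160098 to 28753068) lie on the minus strand and span 699.2 and 593.0 kb, most of it intron. Alpha subunit genes have similar coding sequence, and reads without a unique alignment, 11.97% to 13.66% of all entries, were not counted, so levels of Scn1a, Scn3a, Scn8a and Scn2a1 may be lowered at shared stretches.

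CicKO 3 set much of the spread within CicKO. For Fgf12 the coefficient of variation over CicKO libraries was 10.4%, or 1.08% without CicKO 3, for Scn1a 9.55% or 2.11%, and for Scn4b 12% or 3.99%. CicKO 3 lay at 78.2% to 87.8% of the mean of the other CicKO libraries for Scn1a, Scn8a, Scn2b, Scn4b and Fgf12, at 105% for Fgf14, and at 144% and 193% for Scn3a and Scn3b. Wildtype 3, the other library high in choroid plexus transcripts, lay at 87.8% to 125% of the mean of the other Wildtype libraries over the 8 genes. Whether the choroid plexus transcripts bear on these levels was not tested by the comparison of single libraries. Adding the choroid plexus score (mean log2 CPM of the markers) to the fit left 0 of 8 genes called.

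**Figure D4:**
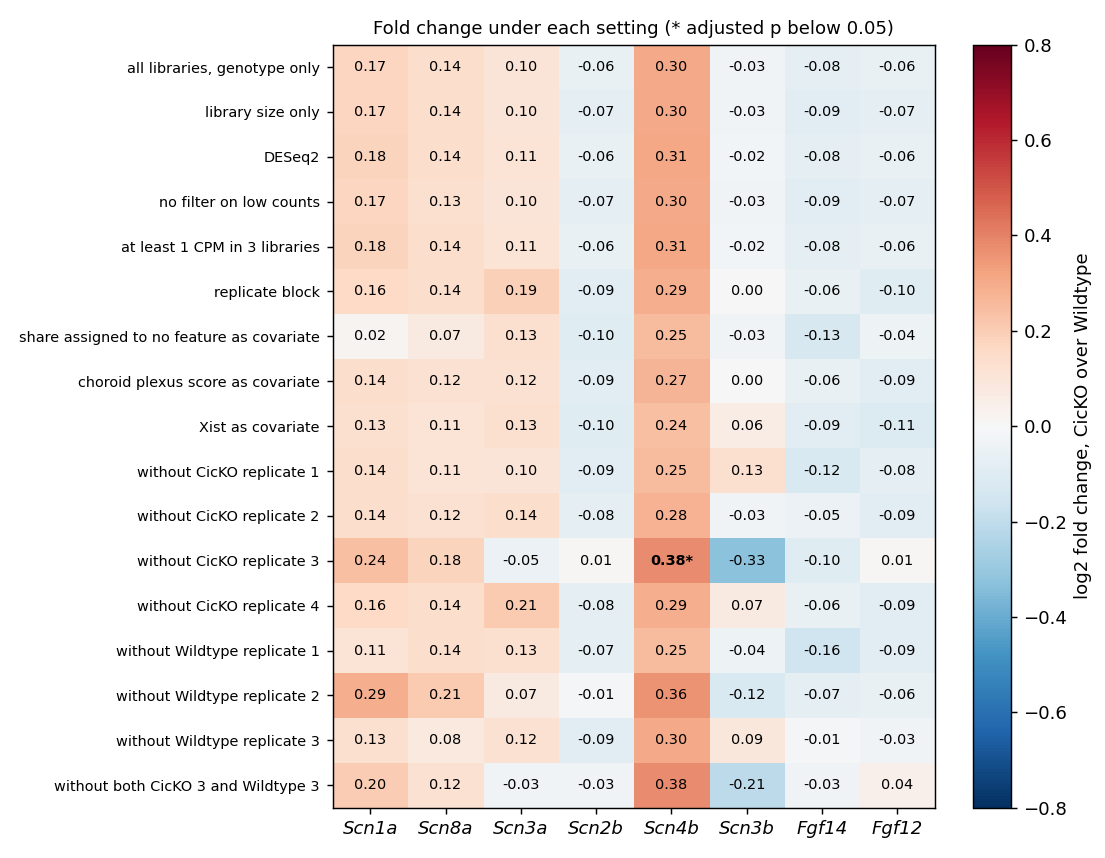
Log2 fold change of CicKO over Wildtype for each gene (columns) under all libraries with genotype only and under 16 alternatives (rows); colour and number both give the fold change, and an asterisk marks an adjusted p below 0.05. The single asterisk is Scn4b without CicKO 3 (0.38), and the signs of Scn1a, Scn8a, Scn4b and Fgf14 are the same in every row.

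The summed Purkinje cell markers were lowest in CicKO 3 among CicKO libraries and highest in Wildtype 2 among Wildtype libraries, as were Scn4b and Scn1a. The 7 markers used (Pcp2, Calb1, Car8, Ppp1r17, Slc1a6, Itpr1 and Rgs8) summed to 12200, 10600, 8310 and 11600 CPM in CicKO, against 8560, 10300 and 8420 CPM in Wildtype. Their fold changes were positive for 7 of 7, with a median of 0.20 on the log2 scale, 0 were called in edgeR or DESeq2, and 0 had an unadjusted p below 0.05. Single markers differed from the sum: Slc1a6 was at 259, 242, 255 and 284 CPM in CicKO, against 252, 229 and 245 CPM in Wildtype, lowest in CicKO 2 and Wildtype 2. Pcp2 was at 144, 125 and 116 CPM in Wildtype, highest in Wildtype 1. None of these markers was at 0 in any library. The part of Purkinje cell RNA in the level of Scn4b was not tested, and in bulk tissue fewer cells of a type and less RNA per cell cannot be told apart. Granule neuron markers, from the most numerous neurons of the tissue, summed to 4970, 4770, 4170 and 4950 CPM in CicKO, against 4790, 4920 and 4540 CPM in Wildtype. They too were lowest in CicKO 3 and highest in Wildtype 2, so this order was not particular to Purkinje cell markers. The summed scaffold and channel turnover lists described further on had the same order. Inhibitory interneuron markers did not, being highest in Wildtype 1 among Wildtype libraries (1990 CPM). Astrocyte and Bergmann glia markers summed to 2440 to 2900 CPM in CicKO and 3330 to 3360 CPM in Wildtype, with 7 of 8 lower without overlap and 3 called in edgeR. Over all tested genes, 15.4% had no overlap in either direction and 0.828% were called lower in edgeR. The part of granule neurons and glia in the levels of the 8 genes was not tested.

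Of 13979 other genes averaging 1 CPM or more, those whose profile over the 7 libraries was nearest to Scn4b were Elfn2, Prkar2b and Ano3. The measure was the root mean square difference of log2 CPM centred on the Wildtype mean, which was 0.0298, 0.0498 and 0.0516. Elfn2 encodes a leucine-rich repeat membrane protein, Prkar2b a regulatory subunit of protein kinase A, and Ano3 a protein of the anoctamin family. Ano3 was at 77.1, 73.0, 63.2 and 69.5 CPM in CicKO, against 53.3, 61.9 and 55.7 CPM in Wildtype. Its groups did not overlap, and its log2 fold change of 0.31 (SE 0.0787) was not called (edgeR adjusted p = 0.0929; 0.00676 in DESeq2). Elfn2 and Prkar2b had fold changes of 0.30 each (edgeR adjusted p = 0.198 and 0.167). Like Scn4b, all 3 were called without CicKO 3 (edgeR adjusted p = 0.0433 for Elfn2, 0.025 for Prkar2b and 0.0237 for Ano3). They were chosen for profiles near that of Scn4b over these same libraries, so this is not a separate result. With 7 libraries close profiles may be found for many genes, and how many there are was not counted.

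**Figure D5:**
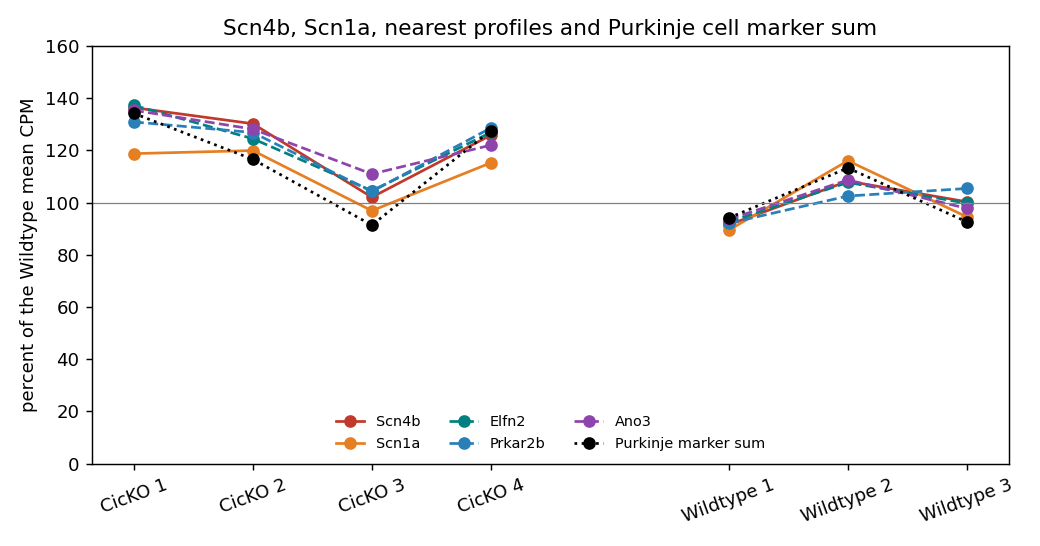
Percent of the Wildtype mean CPM (vertical axis) in each CicKO and Wildtype library for Scn4b, Scn1a, the 3 genes with the nearest profiles and the summed Purkinje cell markers; lines only link values of the same item. Scn4b reaches 126% to 136% in CicKO 1, 2 and 4 and 102% in CicKO 3, where the Purkinje marker sum is 91.4%.

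No other gene of the channel family was called in edgeR, and Scn11a had the largest difference among them. Of 10 genes 8 passed the filter, Scn4a and Scn10a being too low. In edgeR 0 were called and 1 was higher at an unadjusted p below 0.05, and DESeq2 called 1, Scn11a. Over all genes tested, 8.06% were higher at an unadjusted edgeR p below 0.05. Of all genes with an adjusted p in DESeq2, 4.19% were called higher. Fold changes on the log2 scale were positive for 7 of these 8 genes and negative for 1, with a median of 0.21. Scn2a1, the symbol in the files for Scn2a, encodes the alpha subunit of excitatory neurons and lies between Scn3a and Scn1a on chromosome 2. It was at 502, 468, 419 and 450 CPM in CicKO, against 378, 457 and 369 CPM in Wildtype (log2 fold change 0.20, SE 0.0927, edgeR adjusted p = 0.343). Fgf11 and Fgf13, the remaining FHF genes, had 0.12 and 0.23 on the log2 scale.

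Scn11a, an alpha subunit known from peripheral sensory neurons, was at 0.571, 1.11, 2.57 and 0.789 CPM in CicKO, against 0.188, 0.028 and 0.228 CPM in Wildtype. All CicKO libraries lay above all Wildtype libraries, at levels where 3 counts correspond to 0.0245 to 0.0295 CPM. The log2 fold change was 3.07 (SE 0.756, edgeR adjusted p = 0.0967), and it was called in DESeq2 (adjusted p = 0.000233) and in edgeR with the choroid plexus score added to the fit (adjusted p = 0.0113). Over its 15 alternatives the fold change ran from 2.45 to 4.28 and the adjusted p up to 0.469. CicKO 3 was also highest in the 3 tested of 7 brainstem neuron markers (Th, Hoxb3 and Slc6a2), which summed to 31.8, 32.8, 66.0 and 32.4 CPM in CicKO, against 27.5, 11.0 and 29.8 CPM in Wildtype. Nearly all of that sum was Th, and whether Th marks brainstem neurons in this tissue was not tested. Slc6a2, the noradrenaline transporter, was at 0.246, 1.03, 2.00 and 0.133 CPM in CicKO, against 0.0245, 0.0561 and 0.167 CPM in Wildtype (log2 fold change 3.36, SE 1.13, edgeR adjusted p = 0.208). Its groups overlapped, CicKO 3 was highest for it as for Scn11a, and it was called higher in DESeq2. Among the markers too low to be tested, Hoxa3 and Hoxb4 were also highest in CicKO 3 (0.0791 and 0.114 CPM). Chat was highest in Wildtype 1 (0.0734 CPM) and Hoxa5 in CicKO 4 (0.057 CPM). Of these 7 markers Hoxb4 was at 0 in CicKO 4, and Chat and Hoxa5 in CicKO 1. Their part in the level of Scn11a was not tested.

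Among scaffold and adhesion genes of the axon initial segment and node, where sodium channels are anchored, 2 of 20 were called, 1 higher and 1 lower, and the median log2 fold change was 0.04. DESeq2 called 4 of them, adding Sptan1, a spectrin, and Bcan, a proteoglycan of the perineuronal matrix, both higher (edgeR adjusted p = 0.118 for Sptan1 and 0.0993 for Bcan). Over all genes tested in edgeR, 2.08% were called, 1.25% higher and 0.828% lower. Over all genes with an adjusted p in DESeq2, 7.3% were called, 4.19% higher and 3.11% lower. Cntnap2, which holds potassium channels beside the node, rose to 75.6, 74.9, 82.3 and 72.6 CPM in CicKO, against 58.6, 62.0 and 64.1 CPM in Wildtype (log2 fold change 0.31, SE 0.0559, edgeR adjusted p = 0.033). That call was lost without CicKO 1 (adjusted p = 0.102), CicKO 2 (0.0818), CicKO 4 (0.0702), Wildtype 1 (0.144), Wildtype 2 (0.051) or Wildtype 3 (0.0888), while the log2 fold change in these fits was 0.28 to 0.34. Adding the share of entries assigned to no feature to the fit gave 0.28 (edgeR adjusted p = 0.327), and adding Xist, a marker of sex, gave 0.32 (edgeR adjusted p = 0.101). Hapln2, a link protein of the nodal matrix made by oligodendrocytes, fell to 15.7, 20.2, 16.7 and 13.0 CPM in CicKO, against 33.2, 45.3 and 33.4 CPM in Wildtype (-1.19, SE 0.165, edgeR adjusted p = 0.0165). It was not called without CicKO 1 (log2 fold change -1.17, edgeR adjusted p = 0.0689) or Wildtype 1 (-1.26, edgeR adjusted p = 0.0526), or with that share in the fit (-1.40, edgeR adjusted p = 0.0691). That share was 18.24% to 18.96% in CicKO, against 16.02%, 18.55% and 16.45% in Wildtype. The fits with it therefore cannot fully separate it from genotype. Oligodendrocyte markers summed to 3790 to 5980 CPM in CicKO and 5070 to 6370 CPM in Wildtype, with negative fold changes for 8 of 8 and 1 called. Their part in the level of Hapln2 was not tested.

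The anchoring genes themselves were not called. Ank3, the ankyrin that tethers sodium channels at the initial segment, was at 306, 303, 287 and 300 CPM in CicKO and 297, 326 and 289 CPM in Wildtype (log2 fold change -0.02, SE 0.0557). Its 95% interval ran from -9.88% to 7.49%, the groups overlapped and the edgeR adjusted p was 0.881. Sptbn4, the spectrin of the same scaffold, had 0.17 (SE 0.131, edgeR adjusted p = 0.58) and Nfasc, the adhesion molecule neurofascin, 0.02 (SE 0.0724, edgeR adjusted p = 0.917).

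Of 19 genes for turnover and modulation of the channels (calmodulins, ubiquitin ligases, secretases, kinases and splicing factors), 0 were called in edgeR, and DESeq2 called 0. By unadjusted edgeR p (below 0.05), 1 was higher and 2 were lower, against 8.06% and 8.16% of all genes tested. The splicing factor Rbfox2 had a log2 fold change of 0.18 (SE 0.0703, edgeR adjusted p = 0.253) and the protein kinase A catalytic subunit Prkaca -0.09 (SE 0.0399, edgeR adjusted p = 0.302). Of 6 genes of the sodium pump and sodium-calcium exchangers, which use or restore the sodium gradient, 0 were called in edgeR, DESeq2 called 0, and 0 had an unadjusted p below 0.05. The exchanger Slc8a1 was at 128, 124, 96.2 and 123 CPM in CicKO, against 123, 157 and 121 CPM in Wildtype (log2 fold change -0.18, SE 0.125, edgeR adjusted p = 0.522), and CicKO 3 was again the lowest library. The pump beta subunit gene Atp1b2 had -0.07 (SE 0.0703, edgeR adjusted p = 0.674).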

How the data were processed

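Values in the deposited files are raw counts of reads by gene symbol, a file for each library. The submitters' processing notes name STAR 2.5.3a, HTSeq, DESeq2 and build mm10; annotation, strand setting and the remaining versions are not given. Per the labels' protocols, cDNA primed at poly(A) tails and at random was amplified and sheared, so counting was taken as unstranded. The 5 HTSeq summary rows were left out. Of all entries, 16.0% to 19.0% were assigned to no feature, 1.27% to 1.37% were ambiguous and 11.97% to 13.66% had no unique alignment.

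In R 4.3.3, filterByExpr kept 16905 genes, TMM set the scale, and edgeR 4.0.16 gave a robust quasi-likelihood F test of genotype alone, adjusted by Benjamini-Hochberg over all genes tested. A gene is called below an adjusted p of 0.05. The standard error is the fold change over the square root of F, and 95% intervals use the total degrees of freedom of that test. The fit was tested on simulated data. Means carry the SD over libraries. RPKM is TMM-scaled CPM per kilobase of merged exons in GENCODE M21, whose build GRCm38 equals mm10. Log2 CPM for scores, profiles and the pairing check used a prior count of 2. DESeq2 1.42.0, other filters and scalings, added covariates and left-out libraries were alternatives. Floors of 3 counts cover counting error only, since PCR copies without molecular identifiers are not separate molecules. Within groups, pairs of libraries differed by 18.5 to 157 times what sampling allows, so no library was taken for a second copy of another.

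Members and gene lists were chosen with earlier results of these data known. Named are Cic, the 8 members, per list the called genes up to 4 or else the 2 with the smallest adjusted p, and the 3 profiles nearest to the member with the smallest adjusted p. Ank3, Sptbn4, Nfasc, Fgf11, Fgf13, Sptan1, Bcan, Slc6a2, Slc1a6, Pcp2 and Rest were added after seeing their values. Some listed genes are not reported here, and counts and sums of lists leave them out.

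Numbers 1 to 3 are used in both groups. Across genes, deviations from the group mean correlated between same-numbered libraries at 0.145, 0.288 and 0.713. Each exceeds 0.1, the limit for pairing, but so do libraries of unlike number, such as CicKO 1 with Wildtype 2 (0.319); the block by number is an alternative here.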

Additional observations from a re-analysis of the deposited data

Results flagged for a closer look

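CicKO 3 lay far from the other CicKO libraries for 4 of the 20 genes checked, all chosen because they are named here. Scn2b was at 358 CPM in CicKO 3, against 434 to 441 CPM in the other CicKO libraries. Fgf12 was at 127 CPM in CicKO 3, against 157 to 160 CPM. Prkar2b, a nearest profile of Scn4b, was at 18.0 CPM in CicKO 3, against 21.9 to 22.6 CPM. Slc8a1, a sodium-calcium exchanger, was at 96.2 CPM in CicKO 3, against 123 to 128 CPM. Chance alone sets about 1 in 20 groups of this size apart, and the 4 genes share the same library, so they are not separate results. CicKO 3 is also the library with the highest choroid plexus marker sum (12100 CPM), and the part of that in these levels was not tested.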

How the results depend on the processing

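Over the 16 alternatives Scn1a, Scn8a, Scn4b and Fgf14 kept their sign, with log2 fold changes from 0.02 to 0.29 (Scn1a), 0.07 to 0.21 (Scn8a), 0.24 to 0.38 (Scn4b) and -0.16 to -0.01 (Fgf14). The single change of call among the 8 genes was Scn4b without CicKO 3, so leaving out 1 replicate gave 0 to 1 called higher and 0 lower. With the replicate block the members called were 0, and the log2 fold change of Scn4b was 0.29 (edgeR adjusted p = 0.208). No call changed for Cic, for the nearest profiles of Scn4b or in the other channel lists. Signs turned for Scn3a without CicKO 3 (-0.05) and without both CicKO 3 and Wildtype 3 (-0.03), for Scn2b without CicKO 3 (0.01), for Fgf12 without CicKO 3 (0.01) and without both (0.04), and for Scn3b with Xist as a covariate (0.06) and without CicKO 1 (0.13), CicKO 4 (0.07) or Wildtype 3 (0.09). None of these was called, and the cause was not tested. Over single left-out libraries these fold changes ran from -0.05 to 0.21 (Scn3a), -0.09 to 0.01 (Scn2b), -0.33 to 0.13 (Scn3b) and -0.09 to 0.01 (Fgf12).

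Counts over all genes, 212 higher and 140 lower, were 678 and 502 in DESeq2, 46 and 12 with the share assigned to no feature as a covariate, 380 and 320 with the choroid plexus score, and 73 and 31 with Xist. Leaving out 1 library gave 65 to 493 higher and 21 to 349 lower. The share assigned to no feature was 18.24%, 18.39%, 18.96% and 18.81% in CicKO, against 16.02%, 18.55% and 16.45% in Wildtype. It partly followed genotype, so a fit with this covariate cannot fully separate the share from genotype. In the other channel lists, 1 higher and 1 lower became 4 higher in DESeq2, 0 and 0 with the share assigned to no feature, 3 and 2 with the choroid plexus score, and 0 higher with Xist; leaving out 1 library gave 0 to 3 higher and 0 to 1 lower. Counting error was at most 1.3% for the 6 abundant members and up to 5.87% and 5.99% for Scn3a and Scn3b, whose intervals reached 41.4% and 56.3%. The spread of Scn3b over CicKO libraries, a coefficient of variation of 40.9% or 23.5% without CicKO 3, was larger than its counting error.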

Other observations

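Fold changes depended slightly on gene span over all tested genes that could be matched to a protein-coding model. The 2259 genes over 100 kb had a median log2 fold change of 0.02, with 55.7% positive, and the 3672 genes under 10 kb had -0.04, with 39.9% positive. Of the 8 sodium channel genes and partners, 5 span over 100 kb: Scn1a, Scn3a and Scn8a, with positive fold changes, and Fgf14 and Fgf12, with negative ones. Rest, the repressor that silences neuronal genes such as sodium channels outside neurons, was at 3.49, 3.27, 3.59 and 2.80 CPM in CicKO, against 3.05, 2.70 and 3.31 CPM in Wildtype, and was not called (log2 fold change 0.12, edgeR unadjusted p = 0.395).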
